A study of Mus musculus with 12 samples.

Results

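The proteasome subunit genes were followed in peritoneal exudate cells, the mixed cells washed out of the abdominal cavity, on 12 single-colour mouse arrays. Members were all probes that were not controls and whose gene name in the files is Psm followed by a letter from a to g and a number. The rule found 63 of 41174 probes, for 42 genes. Of the 63 probes, 62 were bright enough to test among 27714 probes in all, and all 42 genes were tested among 18273. The probe that was not tested, 1 for Psmd11, was well above background on 0 arrays, and another Psmd11 probe was tested. Each gene was represented by its tested probe of highest mean signal, and on each of the 12 arrays these 42 probes were well above background, with 0 saturated spots.

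The proteasome is the protease that breaks down ubiquitin-tagged proteins in the cytosol and nucleus. Its core particle, the 20S barrel, is built of outer alpha rings and inner beta rings, and the protease activity sits in the beta subunits encoded by Psmb5, Psmb6 and Psmb7. The 19S cap recognises tagged proteins, unfolds them with a ring of ATPases and feeds them into the barrel. In immune cells, and in other cells under interferon, the catalytic subunits can be replaced by those encoded by Psmb8 (LMP7), Psmb9 (LMP2) and Psmb10 (MECL-1). Barrels with these subunits are called immunoproteasomes, and with the PA28 activator made from Psme1 and Psme2 they are known for cutting peptides that fit MHC class I molecules.

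The mice were female, 8 weeks old and of the strain 129S2/SvPas*BALB/c, either wild type or Ifnar2-/-, that is, without a working gene for a subunit of the type I interferon receptor. Cells were taken 3 hours after an intraperitoneal injection of interferon beta (IFN-β, labelled as 10000 IU/ml) or saline (PBS). The 4 groups had 3 arrays each, from different mice. The labels name no cell type to which the deletion is limited, and each sample is a mixture of cells. In such bulk RNA, fewer cells of a type and less RNA per cell cannot be told apart.

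Levels are given on the log2 scale relative to the 75th percentile of the deposited processed signal on the same array, so a level of 0 is that percentile. Of all spots, 59.4% to 62.5% were well above background on the 4 arrays of slide 3 (Ifnar2-/- replicates 2 and 3), and 65.2% to 71.6% on the other arrays. The Ifnar2 gene has 2 probes here. A_52_P190405 read 4.42 to 4.87 on the wild-type arrays and 2.69 to 3.20 on the Ifnar2-/- arrays, whereas A_51_P338924 read 1.08 to 1.78 and 2.49 to 3.11. Only the first of them is therefore lower in the animals labelled Ifnar2-/-, and the labels do not say which part of the gene was deleted. All 7 macrophage and 5 B cell markers were well above background on every array, as were 5 T cell and 5 mast cell markers. The neutrophil marker Ly6g and the monocyte marker Ly6c2 were not among the genes tested.

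The sequence in front of 3 of these genes is shown: Psmb8 and Psmb9, the members with the largest responses, and, for comparison, Psmb5, the constitutive subunit that Psmb8 replaces. All are RefSeq sequences of the C57BL/6J reference (GRCm38.p6), 5′ to 3′ on the gene's strand and ending at the base before the annotated start, and the mice here are of another background. Capitals mark exact matches to 3 patterns on either strand: TTTC, any 2 bases and TTTC again (interferon-stimulated response element), TTCNNNGAA (gamma-activated site, bound by STAT dimers) and TGANNNNGC (antioxidant response element, bound by the proteasome regulator Nfe2l1). The stretch of Psmb9 begins beside the start of the neighbouring gene Tap1, which encodes a subunit of the peptide transporter into the endoplasmic reticulum.
Psmb8, chr17:34197945-34198194, plus strand: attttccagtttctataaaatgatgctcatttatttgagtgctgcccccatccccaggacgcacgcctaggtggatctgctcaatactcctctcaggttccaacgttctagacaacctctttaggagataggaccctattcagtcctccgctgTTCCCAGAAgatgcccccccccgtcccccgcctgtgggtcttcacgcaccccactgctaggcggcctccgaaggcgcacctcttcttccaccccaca
Psmb9, chr17:34187331-34187555, minus strand: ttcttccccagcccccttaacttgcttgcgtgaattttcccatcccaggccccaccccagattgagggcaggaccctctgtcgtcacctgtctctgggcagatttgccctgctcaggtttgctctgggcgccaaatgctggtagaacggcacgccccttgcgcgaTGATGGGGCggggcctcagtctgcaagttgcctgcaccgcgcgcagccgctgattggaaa
Psmb5, chr14:54617996-54618245, minus strand: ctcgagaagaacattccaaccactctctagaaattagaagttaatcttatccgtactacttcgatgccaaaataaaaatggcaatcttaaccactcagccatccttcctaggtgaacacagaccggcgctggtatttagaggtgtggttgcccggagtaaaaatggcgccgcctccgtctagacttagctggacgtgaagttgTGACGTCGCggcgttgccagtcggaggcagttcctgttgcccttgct
The first holds TTCCCAGAA, a match to the gamma-activated site pattern, at bases -97 to -89 from the start. Those of Psmb9 and Psmb5 hold a match to the antioxidant response element pattern, TGATGGGGC and TGACGTCGC. Past the printed stretches, Psmb8 and Psmb5 also match this pattern, at bases 24 to 32 and 42 to 50 from the start. For Psme1, the first 30 bases from the annotated start (chr14:55578494-55578523, plus strand) are shown, since they hold the match to the interferon-stimulated pattern at bases 10 to 19.
Psme1, from the start: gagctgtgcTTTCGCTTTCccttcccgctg
Over windows from 250 bases before to 50 bases after the start, which 35 of the 42 genes have in the table (37 windows), the interferon-stimulated pattern was found in 4 windows (10.8%) against 3.44% of all 32851 windows. These 4 belong to Psme1, Psmb3, Psmd4 and Psmd9. The gamma-activated pattern was found in 2 windows (5.41% against 8.30%), of Psmb8 and Psmd2, and the antioxidant pattern in 20 (54.1% against 41.3%). A match is a string of letters, not a measured binding site.

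In wild-type mice, 25 of the 42 genes were higher 3 hours after IFN-β than after PBS and 0 were lower (limma, Benjamini-Hochberg adjusted p under 0.05 over all 18273 genes). Of all genes tested, 39.4% passed in this comparison, 17.6% as higher and 21.8% as lower. The median log2 fold change was 0.45 over the members and -0.04 over all genes. In 34 of 42 members the lowest IFN-β array lay above the highest PBS array, which held for 24.6% of all genes, and the reverse held for 0 members and 29.1% of all genes. All 4 immunoproteasome genes measured rose, with a median of 2.08, and so did 21 of the other 38, whose median was 0.41.

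**Figure D1:**
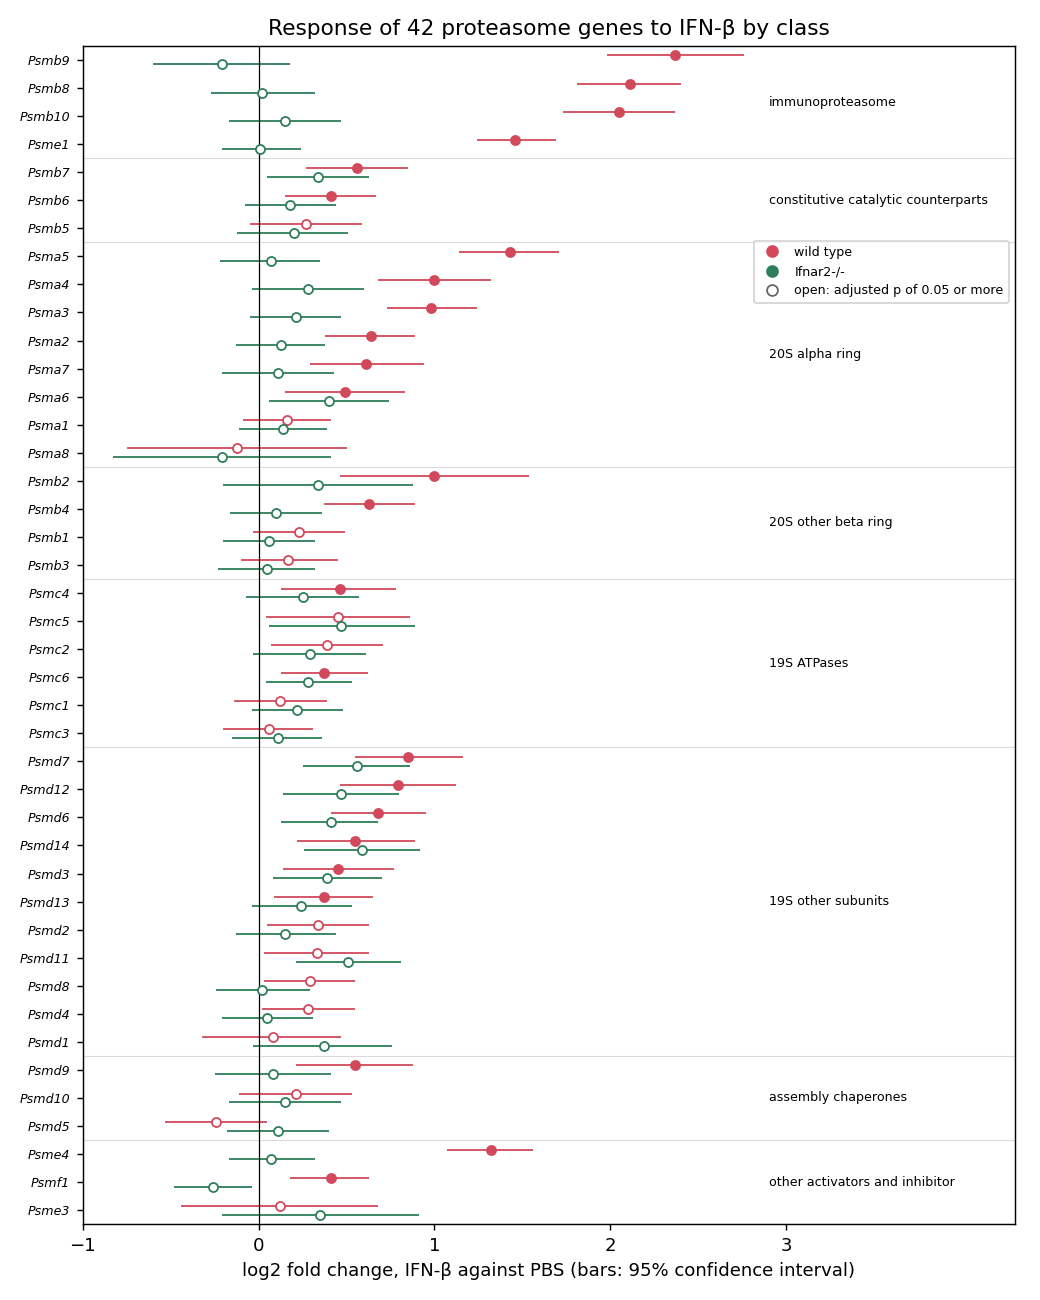
Log2 fold change (horizontal axis) of IFN-β against PBS for each of the 42 genes, grouped by class, in wild-type (red) and Ifnar2-/- mice (green), with 95% confidence intervals from limma. Filled points passed an adjusted p of 0.05; the 4 immunoproteasome genes lie between 1.46 and 2.37 in wild type and between -0.21 and 0.15 in Ifnar2-/-.

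Psmb9, the immunoproteasome subunit that replaces Psmb6, had the largest response of the family. Its level was 3.56, 3.52 and 3.93 on the wild-type PBS arrays and 6.24, 5.83 and 6.05 on the IFN-β arrays. Without the receptor subunit it was 3.32, 3.34 and 3.07 after PBS and 3.13, 3.24 and 2.74 after IFN-β. Only the 3 wild-type IFN-β arrays stood high, with no overlap with any other group. The wild-type change was 2.37 ± 0.17 on the log2 scale (SE, 3 arrays a group), a 5.18-fold rise (adjusted p = 3.09e-06), and the Ifnar2-/- change was -0.21 ± 0.17 (adjusted p = 0.565).

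Psmb8, which replaces Psmb5, has 2 probes (mm7 chr17:32280668-32281049), on the chromosome that also holds the Psmb9 probe (mm7 chr17:32262147-32262206). The representative probe read 3.96, 4.01 and 4.35 after PBS and 6.14, 6.19 and 6.31 after IFN-β in wild type. The Ifnar2-/- arrays read 4.18, 4.29 and 3.95 after PBS and 4.12, 4.18 and 4.21 after IFN-β. The wild-type groups were far apart, and the Ifnar2-/- groups overlapped. The rise was 2.11 ± 0.13 (4.31-fold, adjusted p = 9.97e-07), against 0.02 ± 0.13 in Ifnar2-/- mice (adjusted p = 0.947). The other Psmb8 probe gave 2.15 and 0.04.

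Psmb10, which replaces Psmb7 and lies on another chromosome (probe at mm7 chr8:104534632-104534691), read 5.16, 5.56 and 5.58 after PBS and 7.60, 7.32 and 7.53 after IFN-β in wild type. On the Ifnar2-/- arrays the values were 5.42, 5.53 and 5.48 after PBS and 5.66, 5.77 and 5.46 after IFN-β. Again only the wild-type IFN-β arrays were high. The change was 2.05 ± 0.14 (4.14-fold, adjusted p = 2.16e-06) in wild type and 0.15 ± 0.14 (adjusted p = 0.620) in Ifnar2-/-.

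Psme1, the alpha subunit of the PA28 activator (probe at mm7 chr14:50448660-50448719), read 4.56, 4.57 and 4.73 after PBS and 6.16, 5.96 and 6.14 after IFN-β in wild type. The Ifnar2-/- arrays read 4.49, 4.52 and 4.38, then 4.45, 4.45 and 4.54. The rise of 1.46 ± 0.10 (2.76-fold, adjusted p = 2.15e-06) was the smallest of the 4, and the Ifnar2-/- change was 0.01 ± 0.10 (adjusted p = 0.960). Its partner Psme2 has no probe of that name here. A pair of probes named Psme2b-ps in the files lies next to Psme1 on mm7 chr14 (50454846-50455635), whereas RefSeq places Psme2 beside Psme1 and the near-identical copy Psme2b on chr11, so the gene behind these probes is uncertain. They rose by 1.64 ± 0.11 (adjusted p = 1.58e-06) and 1.37 ± 0.11 (adjusted p = 6.44e-06) in wild type, and read 0.09 and 0.16 in Ifnar2-/- mice (adjusted p = 0.718 and 0.489). They fall outside the naming rule and are in none of the counts.

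**Figure D2:**
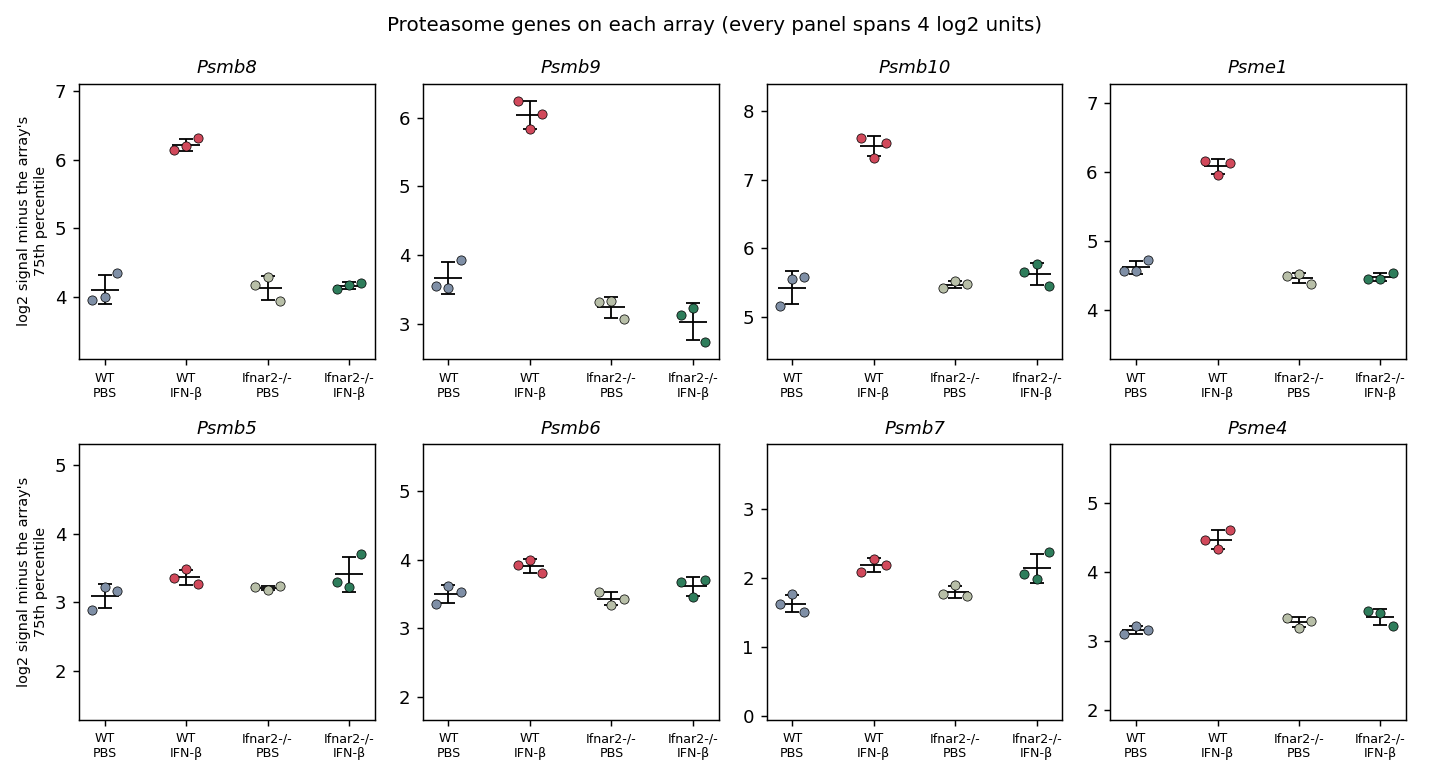
Level on each array (vertical axis, log2 signal relative to the 75th percentile of the array) of the 4 immunoproteasome genes, the 3 constitutive catalytic genes and Psme4, by group. Points are arrays, and bars give the mean and SD (n = 3); all panels span the same number of log2 units, and levels of different genes come from different probes and are not to be set against each other.

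Of the 3 constitutive catalytic subunits 2 rose, and their changes lay between 0.27 and 0.56. Psmb5 read 2.89, 3.22 and 3.17 after PBS and 3.36, 3.48 and 3.26 after IFN-β in wild type, groups that do not overlap but nearly touch, and its change of 0.27 ± 0.14 did not pass (adjusted p = 0.169). Psmb6 read 3.35, 3.61 and 3.53, then 3.92, 4.0 and 3.80, a rise of 0.41 ± 0.12 (adjusted p = 0.0186). This call was lost without wild-type PBS replicate 1 (adjusted p = 0.0739) and without wild-type IFN-β replicate 1 (0.0568) or 2 (0.0612), under quantile normalization (0.472), in unscaled values (0.247) and where slide was a fixed block (0.117). Psmb7 read 1.62, 1.76 and 1.50, then 2.08, 2.28 and 2.19, a rise of 0.56 ± 0.13 (adjusted p = 0.00652) whose call was lost with no scaling (0.0918) and with the slide block (0.126).
In Ifnar2-/- mice Psmb5 read 3.22, 3.18 and 3.24 after PBS and 3.30, 3.23 and 3.70 after IFN-β. Psmb6 read 3.53, 3.34 and 3.43, then 3.67, 3.45 and 3.71, and Psmb7 read 1.76, 1.90 and 1.74, then 2.05, 1.99 and 2.38. None of these 3 changes passed: they were 0.20, 0.18 and 0.34, with adjusted p of 0.510, 0.462 and 0.214.

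Setting each inducible subunit against the one it replaces, on the same array, removes any scaling of an array by a constant. Quantile normalization can still change such differences. With the wild-type PBS mean at 0, the log2 difference of Psmb8 and Psmb5 was 1.77, 1.71 and 2.04 on the wild-type IFN-β arrays, and the PBS arrays lay between -0.23 and 0.16. For Psmb9 against Psmb6 the IFN-β arrays read 2.14, 1.66 and 2.08, and for Psmb10 against Psmb7 1.71, 1.22 and 1.53. The shifts were thus 1.84, 1.96 and 1.49, or 3.58-fold, 3.90-fold and 2.81-fold towards the inducible subunit, with no overlap in any pair. The Ifnar2-/- shifts were -0.17, -0.39 and -0.19. The two-sided exact permutation test gave p = 0.1 for each wild-type pair, the smallest that 3 against 3 arrays allow, and 0.2 after Benjamini-Hochberg adjustment over the 6 tests. The same exact test gave p = 0.4, 0.2 and 0.6 in Ifnar2-/- mice (adjusted 0.48, 0.3 and 0.6).

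**Figure D3:**
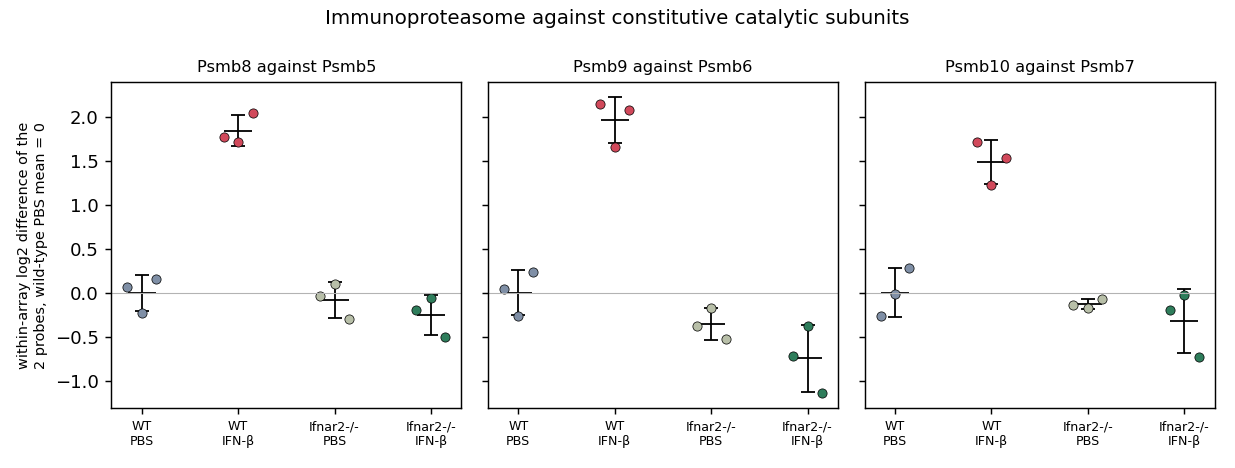
Within-array log2 difference (vertical axis) between each inducible catalytic subunit and the constitutive one it replaces, with the wild-type PBS mean set to 0; points are arrays, bars the mean and SD (n = 3). The wild-type IFN-β arrays lie between 1.22 and 2.14 in the 3 panels, and all Ifnar2-/- arrays lie at or under 0.10.

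The alpha ring, which forms the gated ends of the barrel, is common to both kinds of proteasome. Of its 8 genes 6 rose in wild type, with a median of 0.63 over the 8. Psma5 rose most, from 3.78, 4.08 and 3.86 to 5.44, 5.33 and 5.21, by 1.43 ± 0.13 (2.69-fold, adjusted p = 1.34e-05). In Ifnar2-/- mice Psma5 read 4.10, 3.94 and 4.02 after PBS and 4.08, 3.92 and 4.28 after IFN-β, which overlap. The interval of the Psma5 change (1.14 to 1.71) overlaps that of Psme1 (1.24 to 1.69).
Psma4 rose by 1.00 ± 0.14 (adjusted p = 0.000333; its second probe also gave 1.00) and Psma3 by 0.98 ± 0.12 (adjusted p = 8.51e-05). Psma2, Psma7 and Psma6 rose by 0.64, 0.61 and 0.49. Psma6 passed in 13 of 23 other settings (adjusted p up to 0.276), and lost its call without wild-type PBS replicate 1 (0.102) or 3 (0.0749) and without IFN-β replicate 1 (0.0505) or 2 (0.0987). Quantile normalization ended the calls of Psma2 (0.0686) and Psma7 (0.257), and a fixed slide block that of Psma7 (0.0928). Psma1 (0.16, adjusted p = 0.299) and Psma8, a form known from testis (-0.12, adjusted p = 0.776), did not pass.

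Of the 4 remaining beta subunits, which have no protease activity, Psmb2 rose by 1.00 ± 0.24 (adjusted p = 0.00787) and Psmb4 by 0.63 ± 0.12 (adjusted p = 0.00163). Psmb1 (0.23) and Psmb3 (0.17) did not pass. The slide block ended the call of Psmb2 (0.131) and quantile normalization that of Psmb4 (0.0826). Psmb2 varied more than the others, from 0.31 to 0.98 after PBS and from 1.31 to 2.04 after IFN-β.

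Among the other activators and the inhibitor, Psme4 had the largest change. It encodes PA200, a nuclear activator known for histone breakdown in DNA repair and sperm development. It read 3.1, 3.22 and 3.15 after PBS and 4.47, 4.33 and 4.61 after IFN-β in wild type. Levels in Ifnar2-/- mice were 3.33, 3.19 and 3.29, then 3.43, 3.40 and 3.22. Only the wild-type IFN-β arrays were high, by 1.32 ± 0.11 (2.49-fold, adjusted p = 7.72e-06), and the Ifnar2-/- change was 0.07 (adjusted p = 0.763). All 4 Psme4 probes rose, by 1.26 to 1.75.
Psme3, the PA28 gamma activator of the nucleus, changed by 0.12 ± 0.25 (adjusted p = 0.757). Psmf1, which encodes the inhibitor PI31, rose from 0.32, 0.16 and 0.19 to 0.68, 0.65 and 0.55, by 0.41 ± 0.10 (adjusted p = 0.00841; 0.234 with no scaling and 0.0582 with the slide block). Its levels in Ifnar2-/- mice were lower after IFN-β, from 0.26, 0.48 and 0.35 down to 0.14, 0.09 and 0.07. This change of -0.26 ± 0.10 did not pass (adjusted p = 0.211), although the groups do not overlap. The other Psmf1 probes changed by -0.11 each in these mice.

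In the 19S cap 8 of 17 genes rose, against 17.6% of all genes. Of its 6 ATPase genes, which form the unfolding ring, 2 rose in wild type: Psmc4 by 0.46 (adjusted p = 0.0289) and Psmc6 by 0.37 (adjusted p = 0.0219). The lowest was Psmc3, at 0.06 (adjusted p = 0.745). Of the 11 other cap genes 6 rose, led by Psmd7 at 0.85 ± 0.14 (adjusted p = 0.000688), Psmd12 at 0.79 ± 0.15 (0.00180) and Psmd6 at 0.68 ± 0.12 (0.00140), which belong to the lid. Psmd14, the deubiquitinase that strips ubiquitin from substrates, rose by 0.55 (adjusted p = 0.0134), and Psmd3 and Psmd13 by 0.45 and 0.37. The weaker of these calls depended on the processing. Psmd13 passed in 10 of 23 other settings (adjusted p up to 0.442), Psmd3, Psmc4 and Psmc6 each in 14 (up to 0.828, 0.274 and 0.664) and Psmd14 in 19 (up to 0.193). All 5 lost their call in unscaled values, under the slide block and without wild-type IFN-β replicate 2, and 4 of them, Psmd14 being the exception, without wild-type PBS replicate 1 or IFN-β replicate 1. Calls were also lost without wild-type PBS replicate 2 (Psmc4 and Psmd13) or 3 (Psmc6, Psmd3 and Psmd13), without IFN-β replicate 3 (Psmc4 and Psmd13) and, for Psmd13, without Ifnar2-/- PBS replicate 2 or 3. The lowest was Psmd1, at 0.08 (adjusted p = 0.778). Over the 17 cap genes the median was 0.37, against -0.04 over all genes. All 17 values were positive, against 46.6% of all genes. They come from the same arrays and are not independent.
Of the 3 assembly chaperones under the rule, which help the ATPase ring form, Psmd9 rose by 0.55 (adjusted p = 0.0148; lost in 5 of 23 settings, among them without wild-type PBS replicate 1, 0.0609, and without IFN-β replicate 2, 0.0537), and Psmd10 (0.21) and Psmd5 (-0.24, the lowest of the 42) did not pass. The chaperones Psmg1, Psmg2 and Psmg3 carry older names in the files and lie outside the rule.

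**Figure D4:**
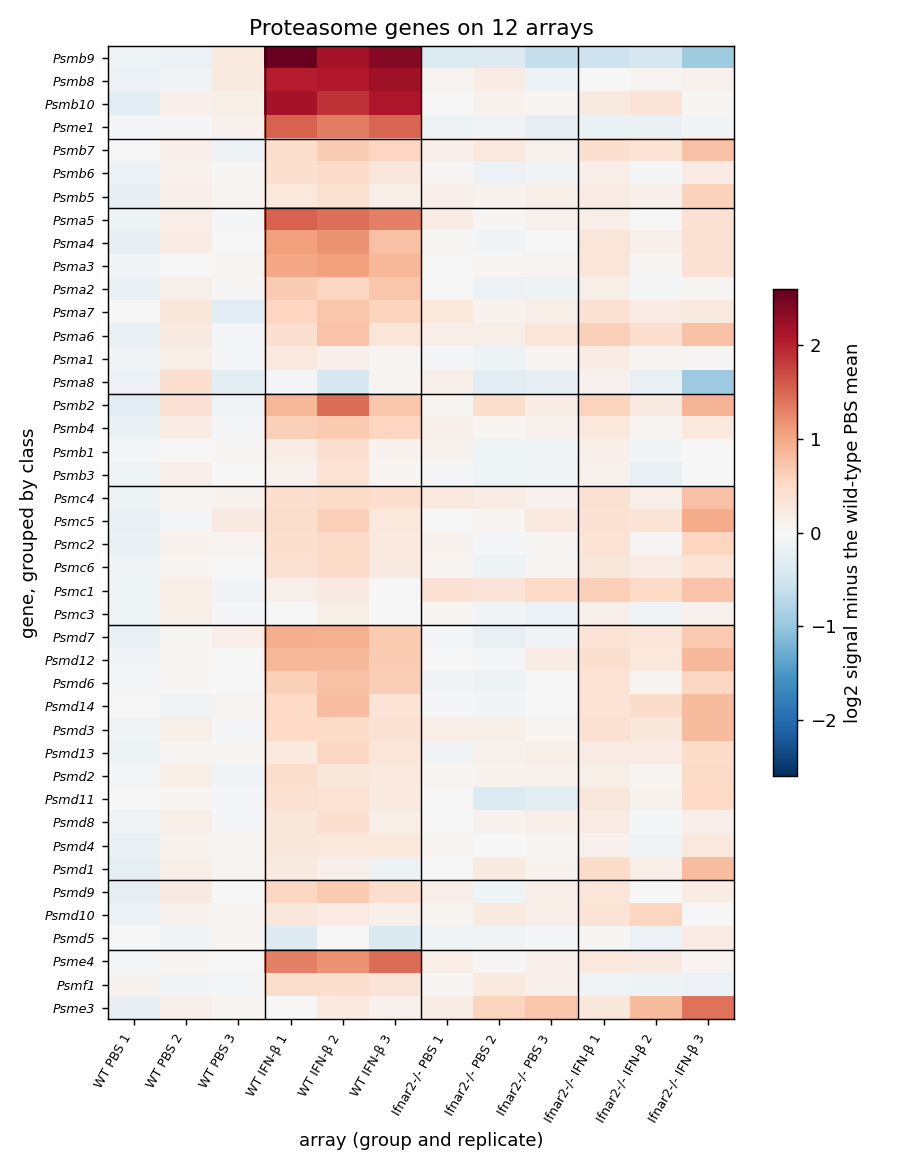
Level of each of the 42 genes (rows, by class) on each of the 12 arrays (columns), as the log2 difference from its wild-type PBS mean. The wild-type IFN-β arrays are red for, among others, the immunoproteasome genes, Psma3 to Psma5, Psmb2 and Psme4. Ifnar2-/- IFN-β replicate 3 is the highest Ifnar2-/- array for 26 of the 42 genes.

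The members were also read by probe, since 15 genes have several tested probes. Of the 62 probes tested 36 were higher in wild type and 0 were lower, where 40% of all probes passed in either direction. All probes agreed on a rise in 5 genes (Psma4, Psmb8, Psmc4, Psmd14 and Psme4), and none passed in Psmb3, Psmc2, Psmd2 and Psmd4. In the other 6 genes some passed and some did not. Psmd12 had probes at 0.79, 0.88 and 0.19, Psmd7 at 0.85, 1.08 and 0.55, and Psmf1 at 0.41, 0.76 and 0.29, where the lowest did not pass. Psmd9 (0.55 and 0.05) and Psmc6 (0.37 and 0.13) had 1 that passed and 1 that did not. In Psmc5 the representative probe (0.45) did not pass and the other (0.49, adjusted p = 0.0203) did.

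**Figure D5:**
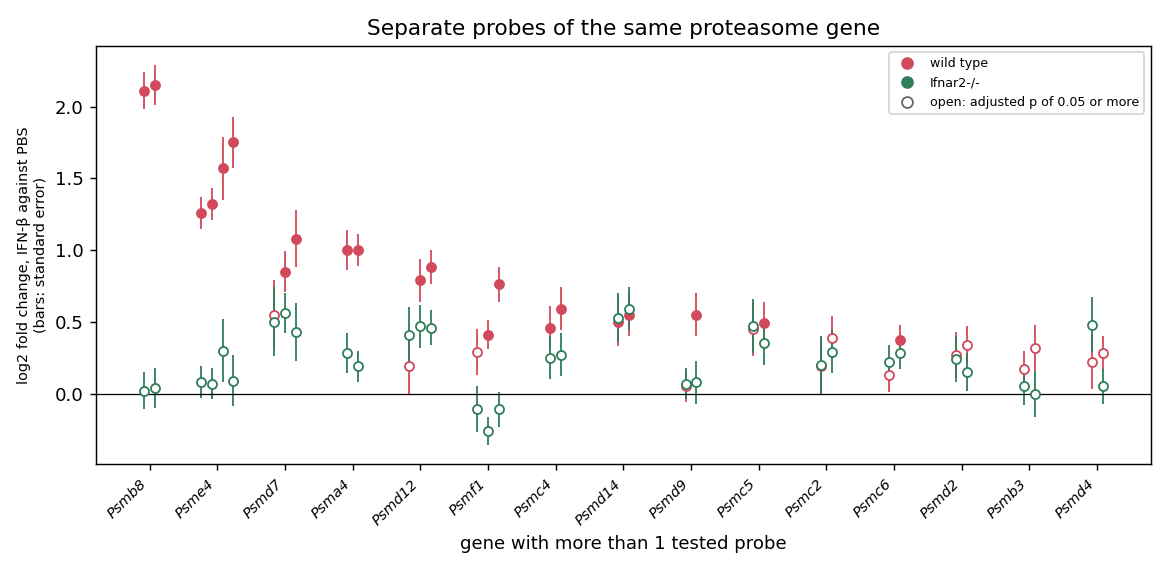
Log2 fold change (vertical axis, with SE) of IFN-β against PBS for each tested probe of the 15 genes with more than 1 probe, in wild type (red) and Ifnar2-/- (green). Filled points passed an adjusted p of 0.05 over all probes; the 4 Psme4 probes lie between 1.26 and 1.75 in wild type.

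In Ifnar2-/- mice 0 of the 42 genes and 0 of the 62 probes passed in either direction (limma), where 1.13% of all genes (0.925% as higher and 0.208% as lower) and 1.11% of all probes did. At an unadjusted p under 0.05 there were 11 members (26.2%), against 18.3% of all genes. The median was 0.17 over the members and -0.05 over all genes, and 39 of the 42 values were positive (92.9%), against 44.4% of all genes. The median was 0.29 over the 17 genes of the 19S cap and 0.02 over the immunoproteasome genes. Psmd14 was highest at 0.59 ± 0.15 (adjusted p = 0.0899), with levels of 3.24, 3.22 and 3.31 after PBS and 3.65, 3.77 and 4.12 after IFN-β. Psmd7 followed at 0.56 ± 0.14 (adjusted p = 0.0847), from 2.27, 2.13 and 2.23 to 2.68, 2.64 and 3.00, and Psmd11 at 0.51 (adjusted p = 0.102). The groups of these genes do not overlap, but none passed.
IFN-β replicate 3 was the highest of the 6 Ifnar2-/- arrays for 15 of the 17 cap genes. Their median of 0.29 moved to 0.21 without that array and to 0.43 without IFN-β replicate 2. The summed level of the 4 neutrophil markers, in multiples of the 75th percentile, was 190 on that array and 73.5 on replicate 2, against 14.5 on replicate 1 and 6.04 to 10.3 after PBS. It was 98.4 on wild-type PBS replicate 1. The part of these cells in the cap genes' values was not tested. Over all 42 genes, the IFN-β arrays lay above all PBS arrays in 13 and below in 1, against 11.3% and 12.2% of all genes.

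The responses of both genotypes were then compared directly. The response was lower in Ifnar2-/- mice for 10 of the 42 genes and higher for 0 (limma interaction, adjusted p under 0.05), where 9.09% and 8.68% of all genes passed. All 4 immunoproteasome genes were among them: Psmb9 by -2.58 ± 0.25 (adjusted p = 5.7e-05), Psmb8 by -2.09 ± 0.19 (3.7e-05), Psmb10 by -1.90 ± 0.20 (0.000115) and Psme1 by -1.45 ± 0.14 (7.5e-05). The others were Psma5 (-1.36), Psme4 (-1.24), Psma3 (-0.77), Psma4 (-0.71), Psmf1 (-0.67) and Psmb4 (-0.53, adjusted p = 0.0498). For Psmb4 and Psma4 the call held in 4 and 6 of 22 other settings. Psma3 held in 18 and Psmf1 in 20 of them. Without the 4 arrays of slide 3, which leaves 1 array in each Ifnar2-/- group and assumes that it varies like the wild-type arrays, 6 members passed: Psmb8, Psmb9, Psmb10, Psme1, Psma5 and Psme4.
None of the 17 cap genes passed in this comparison, and their median was -0.10. The interval for Psmd14 was -0.43 to 0.51 and for Psmd7 -0.73 to 0.14, so these data leave differences of either sign within those bounds. Nor did the constitutive catalytic genes pass (Psmb5 -0.07, Psmb6 -0.23, Psmb7 -0.22). The sign of the median over members outside the immunoproteasome depends on the scaling: it was -0.18, but 0.02 after quantile normalization and 0.10 with no scaling. Relative to the median of all genes, the responses of these members stood at 0.45 in wild type and 0.25 in Ifnar2-/- mice. With no scaling these values are the same by construction, since that setting differs from the main one only by a constant for each array. After quantile normalization they were 0.26 and 0.24, and with normexp background correction 0.37 and 0.25.

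After PBS alone, 0 of the 42 genes and 0 of the 62 probes passed between the genotypes (limma), where 4.88% of all genes (2.85% as higher in Ifnar2-/- and 2.04% as lower) and 4.53% of all probes did, and 2 members (4.76%) had an unadjusted p under 0.05, against 20.2% of all genes. These were Psmb9, lower in Ifnar2-/- mice by -0.42 ± 0.17 (interval -0.81 to -0.04, adjusted p = 0.209), and Psmc1, higher by 0.41 ± 0.12 (adjusted p = 0.0848). Psmb8 (0.04) and Psmb10 (0.05) had intervals of -0.26 to 0.33 and -0.27 to 0.37. No slide holds PBS arrays of both genotypes: those of wild type are all on slide 1, and those of Ifnar2-/- on slides 2 and 3. With slide as a fixed block 0 of the 42 passed as well, where 0.17% of all genes did. The Psmb9 difference was then -0.04 and that of Psmc1 was 0.39. Of 40 cell markers 3 were higher in Ifnar2-/- mice after PBS, 2 of mast cells (summed level 279 to 335, against 188 to 264 in wild type) and 1 of dendritic cells (0.333 to 0.472, against 0.25 to 0.291), and their part in these values was not tested.

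The rest of the pathway was read from lists of genes outside the naming rule, beside the 39.4% of all genes that passed in wild type (17.6% as higher). Of 10 MHC class I loading genes 5 rose in wild type: Tap1 by 3.31 (adjusted p = 3.45e-07), Tapbpl by 2.37 and Tap2 by 2.11, then Tapbp by 1.21 and H2-K1 by 0.49. Tap1, Tap2, Tapbp and Tapbpl serve the transfer of cytosolic peptides into the endoplasmic reticulum and onto the class I molecule. H2-K1 encodes a chain of that molecule. Of 8 peptidases that trim proteasome products 4 rose: Lap3 by 1.62, Lnpep by 1.42, Erap1 by 0.91 and Tpp2 by 0.51. Of 18 proteasome partners 6 rose, among them the barrel chaperone Pomp (0.60 ± 0.13, adjusted p = 0.00383), and 2 fell, the shuttle factor Ubqln2 (-0.69) and the Nfe2l1 protease Ddi2 (-0.62), which makes 44.4% and is near the share of all genes. Nfe2l1 itself, the transcription factor of the proteasome genes, did not pass (-0.23, adjusted p = 0.271). None of the genes of these 3 lists passed in Ifnar2-/- mice. Tap2 was higher in Ifnar2-/- than in wild-type mice after PBS, by 1.69 (adjusted p = 8.21e-05), and so was the partner Zfand5, by 0.62 (adjusted p = 0.02). With slide as a fixed block the Tap2 difference was 1.59 and did not pass (adjusted p = 0.101). Its neighbours Psmb8 and Psmb9 did not pass in either fit.

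Over the 12 arrays, the genes most like Psmb8 by Pearson correlation among 18251 genes were Tpst1, Stk39, Aida, Dll1 and BC006779, with r from 0.9934 to 0.9952. Among the members the nearest were Psme1 (r = 0.99, rank 28 among all genes), Psmb10 (0.98, rank 82), Psme4 (0.97, rank 250), Psmb9 (0.97, rank 322) and Psma5 (0.96, rank 372). Psmb5, the subunit that Psmb8 replaces, had r = 0.32. The arrays fall into 4 groups and are not independent points, so these values are a description.

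The slides and groups are partly aligned: slide 1 holds only wild-type arrays and slide 3 only Ifnar2-/- arrays. On slide 1, which has all 3 wild-type PBS arrays and 1 wild-type IFN-β array, the median immunoproteasome change was 2.10. The Ifnar2-/- value was -0.06 on slide 2 and 0.06 on slide 3. With slide as a fixed block, 13 of the 42 genes were higher in wild type in place of 25, an estimate that rests on that single IFN-β array.
Of 40 cell markers tested in wild type 4 rose and 11 fell (37.5%), near the 39.4% of all genes. Of these, 3 of 5 T cell markers fell (summed level 3.29 to 3.39 after PBS, 1.82 to 2.39 after IFN-β), and 2 of 5 mast cell markers fell (188 to 264, then 164 to 188). Of 2 monocyte markers Chil3 rose and Ccr2 did not pass (summed level 6.09 to 8.18, then 10.2 to 13.3). Among B cell markers 0 of 5 passed (182 to 268, then 187 to 231). The macrophage sum was 349 to 498 and then 363 to 426, with 1 marker higher and 1 lower of 7. Of 4 NK cell markers 1 rose and 2 fell, of 4 dendritic cell markers 1 rose and 1 fell, of 4 mesothelial markers 2 fell, and 0 of 4 neutrophil markers passed. In Ifnar2-/- mice 0 markers of any list passed between IFN-β and PBS. The part of these shifts in the proteasome values was not tested.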

How the data were processed

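Total RNA of peritoneal exudate cells was labelled with Cy3 and hybridised to Agilent arrays, per the labels' protocols. The deposited files hold intensity values per spot, which per the file headers Agilent Feature Extraction 9.5.3.1 background-subtracted and detrended within each array; nothing was scaled between arrays. The deposited value table of the series held the same intensity values and was not used further. The flag columns that the authors deposited (well above background, saturated, outlier) are yes-or-no marks. Positions are those of the headers' build, mm7.

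Here, spots flagged as outliers were left out, spots of a probe were averaged, and each array's log2 values were set relative to their 75th percentile. A probe was tested if some group had it well above background throughout and if 6 or more arrays measured it. All 12 arrays entered a limma 3.58.1 fit (R 4.3.3) with 4 group means; tests were two-sided, with 8 residual and 2.38 prior degrees of freedom, adjusted by Benjamini-Hochberg within each comparison. Intervals cover 95%. The fit was tested on simulated data with independent noise for each gene and array. These held no slide effect, so that test says nothing about the alignment of slides and groups. Replicates are different mice, per the design text, and their number limits the precision. The main fit did not treat arrays with the same replicate number as paired. Of 18 same-numbered pairs, 4 had deviations correlating above 0.1, and the range was -0.12 to 0.51. The highest was that of Ifnar2-/- PBS and IFN-β replicate 1, which share slide 2.

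Members, gene lists and tests were chosen with earlier results of these data known. Named in full are the immunoproteasome genes and their counterparts, in each other class the members with the highest and lowest wild-type change, members that passed, genes whose probes differ, and pathway genes that passed with an absolute log2 fold change of at least 1; other values named were chosen after they were seen. A further pathway list is not reported here. Alternatives covered scaling, background correction, the filter, the probe rule, slide and replicate blocks and single arrays left out; the one without slide 3 was chosen after seeing the data.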

Additional observations from a re-analysis of the deposited data

Results flagged for a closer look

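The difference between the responses of the genotypes (Ifnar2-/- minus wild type, log2, limma interaction) passed for 10 members. It was -2.58 for Psmb9, -2.09 for Psmb8, -1.90 for Psmb10 and -1.45 for Psme1, the immunoproteasome genes. Outside that group it was -1.36 for Psma5, -1.24 for Psme4, -0.77 for Psma3, -0.71 for Psma4, -0.67 for Psmf1 and -0.53 for Psmb4. Psmf1 alone of these had Ifnar2-/- IFN-β arrays that all lay below the PBS arrays of the same genotype, which held for 12.2% of all genes. That was its representative probe, at -0.26, and its other probes changed by -0.11 each in Ifnar2-/- mice.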

How the results depend on the processing

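The wild-type rise of Psmb8, Psmb9, Psmb10, Psme1, Psma3, Psma4, Psma5, Psmd6, Psmd7, Psmd12 and Psme4 passed under all 23 other settings, and no member passed in Ifnar2-/- mice or after PBS under any. The number of members higher in wild type was 16 after quantile normalization, 15 with no scaling and 13 where slide was a fixed block, against 25, and 17 to 30 when single arrays were left out. With quantile normalization and with no scaling the wild-type median was 1.83 and 1.91 for the immunoproteasome genes and 0.15 and 0.24 for the other members. The median of all genes was then -0.11 and -0.21. Relative to it the other members stood at 0.26 after quantile normalization and 0.37 with normexp background correction, against 0.45 in the main setting. With no scaling the value, 0.45, equals the main one by construction. The share of wild-type calls that were higher was 44.6%, and 38.4% and 30.6% with quantile normalization and with no scaling. With no scaling the Ifnar2-/- immunoproteasome median was 0.13. For the difference of responses, the immunoproteasome median was -1.76 (quantile) and -1.72 (no scaling) against -1.99, and the other members' 0.02 and 0.10. The number of members with a lower response was 6 with no scaling and 6 without slide 3, which leaves 1 array in each Ifnar2-/- group (over all genes 9 then passed in Ifnar2-/- mice, against 207), in place of 10, and 8 to 12 when single arrays were left out. The wild-type immunoproteasome median was 1.97 to 2.18 and that of the others 0.34 to 0.46 without single arrays. With the replicate block the counts were 25 and 8; Psma4 (adjusted p = 0.0642) and Psmb4 (0.0870) lost their call in the difference.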
